A study of Mus musculus with 8 samples.

Results

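The guanylate binding proteins (GBPs) and the immunity-related GTPases (IRGs) were examined in mouse embryonic stem (ES) cells given an esiRNA against Ctr9. The set held 10 genes, namely the GBPs Gbp2, Gbp2b (also written Gbp1), Gbp3, Gbp6, Gbp7 and Gbp8 and the IRGs Irgm1, Irgm2, Igtp (also called Irgm3) and Iigp1 (Irga6). They were read by 14 probe sets, all those annotated to exactly 1 of these symbols, out of 18193 genes and 45037 probe sets measured. The genes were chosen with their difference between the treatments already known, so their values in that comparison are given as a description and carry no test.

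Each of 8 one-colour Affymetrix arrays held the RNA of 1 sample of ES cells of the strain labelled Oct4-Gip at passage 25, taken on day 4 after lipofection. In 4 samples the esiRNA, a pool of short double-stranded RNAs, was directed against Ctr9, a scaffold subunit of the Paf1 elongation complex, and in 4 against luciferase, a firefly gene used as the control target. All samples thus received double-stranded RNA and lipid, and no untransfected sample is among them. The labels do not say whether the 4 samples of a group were separate cultures, so any p-value reflects how far these 8 samples scatter, and that scatter may be technical. Signals are log2 values, and a difference of 1 is 2-fold.

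GBPs and IRGs are large GTPases that most cell types make after exposure to interferon, above all interferon gamma. They assemble on membranes around intracellular parasites and bacteria and help to break these compartments open. Interferon receptors act through JAK kinases and STAT factors, which bind gamma activated sites (GAS), and through STAT and IRF factors, which bind interferon-stimulated response elements (ISREs) in the promoters of such genes. ES cells are known for a weak response to type I interferon.

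The promoters of the members are shown first, since the signals of most of these genes moved together. RefSeq start sites (GRCm38.p6) were at hand for 7 of the 10 genes, in 8 promoter entries. The 150 bases before the start of each gene are printed from 5′ to 3′ in the direction of transcription, with motif matches on either strand in capitals. The ISRE core was searched as GAAA and GAAA with any 2 bases between them, and the GAS as TTC and GAA with any 3 bases between them.
Gbp2 (chr3:142620513-142620662, plus strand): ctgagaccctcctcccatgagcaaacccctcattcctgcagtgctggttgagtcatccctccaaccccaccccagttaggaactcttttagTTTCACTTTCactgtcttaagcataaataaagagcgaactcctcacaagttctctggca
Gbp2b (chr3:142594697-142594846, plus strand): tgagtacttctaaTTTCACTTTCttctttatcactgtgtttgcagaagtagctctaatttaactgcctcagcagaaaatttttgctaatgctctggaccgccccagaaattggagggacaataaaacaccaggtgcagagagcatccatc
Gbp3 (chr3:142559894-142560043, plus strand): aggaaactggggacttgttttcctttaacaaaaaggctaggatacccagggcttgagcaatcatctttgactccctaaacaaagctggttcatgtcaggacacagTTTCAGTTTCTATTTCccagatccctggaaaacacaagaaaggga
Gbp7 (chr3:142530186-142530335, plus strand): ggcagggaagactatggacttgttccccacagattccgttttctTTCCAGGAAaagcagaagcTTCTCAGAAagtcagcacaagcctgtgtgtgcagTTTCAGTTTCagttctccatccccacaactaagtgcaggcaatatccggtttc
Irgm1 (chr11:48871421-48871570, minus strand): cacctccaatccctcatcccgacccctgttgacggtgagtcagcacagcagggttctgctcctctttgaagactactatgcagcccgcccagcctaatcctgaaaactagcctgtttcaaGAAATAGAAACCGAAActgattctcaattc
Irgm2 (chr11:58214827-58214976, plus strand): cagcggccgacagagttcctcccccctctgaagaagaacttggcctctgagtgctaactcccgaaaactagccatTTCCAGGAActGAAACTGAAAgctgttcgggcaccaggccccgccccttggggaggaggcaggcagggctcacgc
Igtp (chr11:58199406-58199555, plus strand): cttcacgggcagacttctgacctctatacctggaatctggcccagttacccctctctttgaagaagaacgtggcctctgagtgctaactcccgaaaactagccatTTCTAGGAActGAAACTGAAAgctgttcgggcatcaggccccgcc

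Every one of the 7 genes had an ISRE core match in its promoter, over the window from 250 bases before to 50 bases after the start. Across all 32851 RefSeq mouse promoters of that length, 3.44% held such a match. The matched letters, read in the motif's direction, were GAAAGTGAAA in Gbp2 and Gbp2b, and GAAACTGAAA in Gbp7, Irgm2 and Igtp. Gbp3 held GAAACTGAAA and, overlapping it, GAAATAGAAA. Irgm1 held GAAATAGAAA and, again overlapping, GAAACCGAAA. The matches began 24 to 64 bases before the start in 6 genes and 137 bases before it in Gbp2b. A second annotated start of Gbp3 had no match in its window, so the count is 7 of 8 promoter entries. No promoter of Gbp6, Gbp8 or Iigp1 was read. These members had the smallest differences between the treatments, so matches could not be compared between members that moved much and little.

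GAS matches were found in Gbp7 (TTCCAGGAA and TTCTCAGAA), Irgm2 (TTCCAGGAA) and Igtp (TTCTAGGAA), against 8.30% of all promoters, and both motifs stood together in 0.454% of all promoters. In Irgm2 and Igtp the GAS and the ISRE core were separated by the same 2 letters, ct. The 250 bases before the start of these neighbouring genes were 68.9% identical in a global alignment and shared an unbroken run of 55 bases. For the other 20 pairs of members the identity was 47.6% to 55.4% and the longest shared run 13 bases. A match of letters describes the sequence and does not show that a factor binds there.

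**Figure D1:**
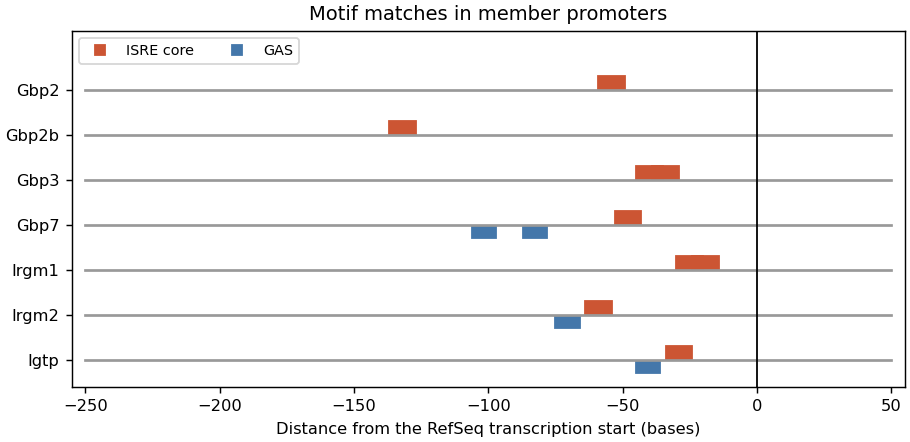
Positions of ISRE core (red, above the line) and GAS (blue, below the line) matches in the promoters of 7 members, on an axis of bases from the RefSeq start. All 7 lines carry an ISRE core match, and Gbp7, Irgm2 and Igtp also carry GAS matches.

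The chromosome 3 GBPs had the largest differences. Gbp2, a prenylated GBP that coats parasite vacuoles, read 6.66, 6.69, 6.70 and 6.71 in the luciferase arrays and 9.14, 9.25, 9.08 and 9.31 in the Ctr9 esiRNA arrays. The lowest Ctr9 esiRNA value lay 2.37 log2 units above the highest control value. The difference was 2.50 (SE 0.056), or 5.67-fold. The other Gbp2 probe set, of the kind whose probes can also match related transcripts, gave 6.57, 6.65, 6.45 and 6.41 against 9.28, 9.30, 9.19 and 9.31, a difference of 2.75 (SE 0.062). Both probe sets of Gbp2 thus placed all 4 Ctr9 esiRNA arrays far above all 4 controls.

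Gbp2b, the neighbour and close relative of Gbp2, read 6.28, 6.35, 6.38 and 6.30 with luciferase esiRNA and 8.91, 8.94, 8.84 and 8.92 with Ctr9 esiRNA. Its difference of 2.57 (SE 0.047, 5.95-fold) was the largest of the 10 genes and the fifth largest increase of all 18193 genes. The groups were 2.46 log2 units apart at their nearest values. Gbp3 read 5.91, 5.76, 6.03 and 6.03 in the controls against 8.52, 8.41, 8.23 and 8.44, a difference of 2.46 (SE 0.079, 5.52-fold).

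Gbp7, a GBP implicated in antibacterial autophagy and oxidative killing, showed 5.59, 5.38, 5.41 and 5.57 with luciferase esiRNA and 7.41, 7.73, 7.60 and 7.69 with Ctr9 esiRNA on its brighter probe set. The groups stood 1.82 log2 units apart at their nearest values, and the difference was 2.12 (SE 0.080, 4.35-fold). The dimmer Gbp7 probe set gave 4.54, 4.52, 4.46 and 4.33 against 4.89, 4.83, 4.88 and 4.95, a difference of only 0.43 (SE 0.057). Its groups also did not overlap, but the size of the Gbp7 difference rests on the brighter probe set, and the mean of both was 1.28. How far the probe sets of these related genes read each other's transcripts was not tested.

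The GBPs of chromosome 5 differed little. Gbp6 read 4.18, 3.82, 3.75 and 4.02 in the controls and 4.12, 4.15, 4.45 and 4.20 with Ctr9 esiRNA, a difference of 0.29 (SE 0.102), and its other probe set differed by 0.16 (SE 0.103). Gbp8 read 3.15, 3.42, 3.13 and 3.42 against 3.07, 3.25, 3.21 and 3.47, a difference of -0.03 (SE 0.098). The groups overlapped on all 3 probe sets. All 3 also read far below the median signal of the arrays (5.75) in both groups, where no background level was measured, so a change in transcripts near the floor of the arrays would not be seen. A further probe set, annotated to both Gbp8 and Gbp4 and therefore outside the rule, differed by 0.023 (SE 0.074).

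**Figure D2:**
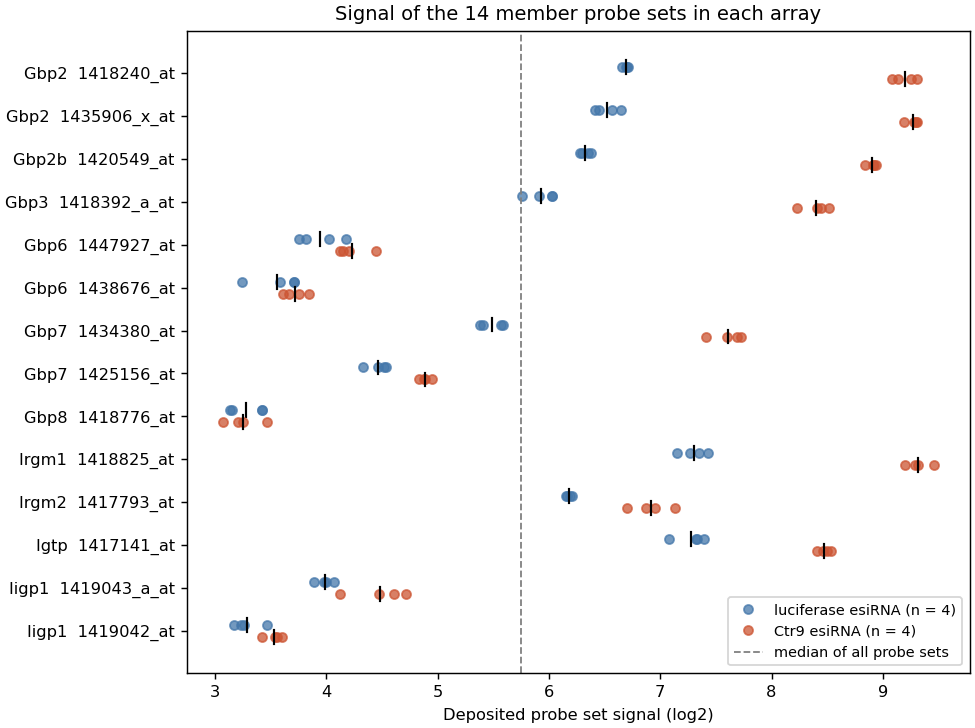
Deposited log2 signal of each of the 14 member probe sets in the 4 luciferase (blue) and 4 Ctr9 esiRNA (red) arrays, with group means as short black lines and the median of all probe sets dashed. Groups stand more than 1 log2 unit apart for Gbp2, Gbp2b, Gbp3, Irgm1, Igtp and the brighter Gbp7 probe set, and overlap for Gbp6 and Gbp8.

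Among the IRGs, the regulatory members of the Irgm class, which keep the effector IRGs inactive on the cell's own membranes, were the ones with clear signal. Irgm1, which is also needed for host autophagy against mycobacteria, read 7.35, 7.27, 7.15 and 7.43 with luciferase esiRNA and 9.46, 9.29, 9.20 and 9.32 with Ctr9 esiRNA. The difference was 2.02 (SE 0.075), or 4.05-fold, and the groups were 1.77 log2 units apart. Igtp read 7.33, 7.39, 7.08 and 7.32 against 8.41, 8.46, 8.50 and 8.53, a difference of 1.19 (SE 0.069, 2.29-fold).

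Irgm2 differed least in the Irgm class, with 6.19, 6.21, 6.16 and 6.15 in the controls and 6.95, 6.87, 6.70 and 7.13 with Ctr9 esiRNA. Its difference was 0.74 (SE 0.081, 1.67-fold), and its groups did not overlap. The order Irgm1, Igtp, Irgm2 was kept in each alternative processing, with ranges of 1.97 to 2.06 for Irgm1, 1.11 to 1.28 for Igtp and 0.66 to 0.81 for Irgm2. Igtp and Irgm2 thus differed in size of response although their printed promoters share the GAS and ISRE arrangement. Differences of separate probe sets also depend on how each probe set responds, which was not tested.

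Iigp1, an effector IRG that loads onto parasite vacuoles, was dim in both groups. Its brighter probe set read 3.89, 3.98, 4.07 and 4.00 in the controls and 4.47, 4.12, 4.72 and 4.61 with Ctr9 esiRNA, a difference of 0.49 (SE 0.112). The groups were 0.05 log2 units apart at their nearest values, and Ctr9 esiRNA array 2 stayed close to the controls. On the other Iigp1 probe set, which differed by 0.25 (SE 0.070), the groups overlapped.

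Read by the brightest probe set of each gene, 8 of the 10 genes had higher values in every Ctr9 esiRNA array than in any control, against 18.8% of all genes (36.6% in either direction), and none were lower in the same sense. A difference of at least 2-fold was reached by 6 of 10 genes, against 1.01% of all genes, and one of at least 4-fold by 5, against 0.11%. The median difference was 1.61 over the 10 genes and 0.0036 over all genes. The contrast chose the members, so these shares describe them and support nothing further. The 4 genes with differences under 1 included all 3 that stayed below the array median in both groups (Gbp6, Gbp8 and Iigp1).

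**Figure D3:**
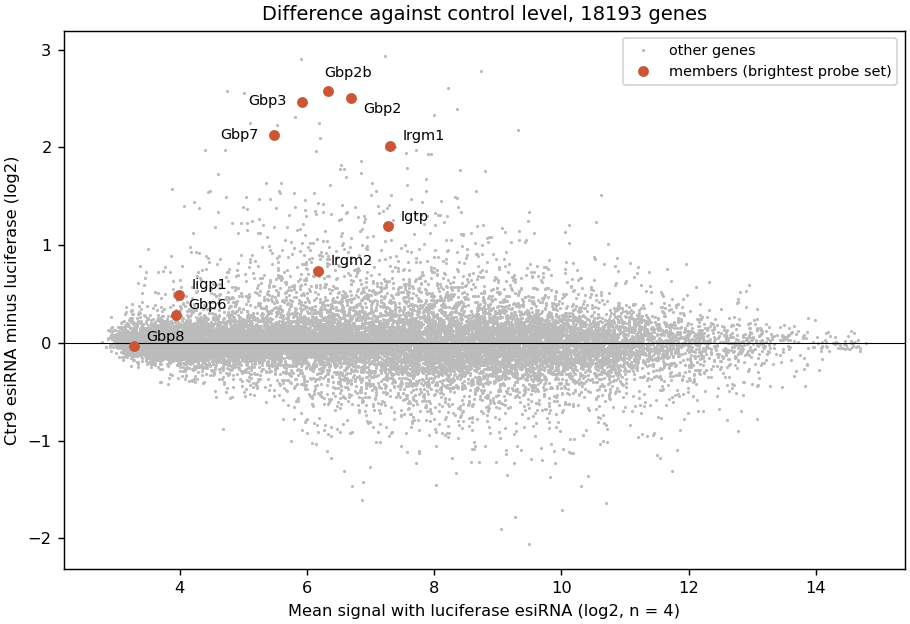
Difference between the treatments (log2) against the mean control signal (log2, n = 4) for all genes, with the 10 members in red. Gbp6, Gbp8 and Iigp1 lie at the dim end, and the genes with differences above 2 (Gbp2, Gbp2b, Gbp3, Gbp7 and Irgm1) had control signals from 5.49 to 7.30.

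The arrays of a group also differed among themselves. Over the 7 members with a difference of at least 0.5, the 21 pairwise correlations of these deviations across 8 arrays ran from -0.60 to 0.75, with a median of 0.31, and 15 were above 0. These values are a description, and the arrays of a group share their processing. Ctr9 esiRNA array 4 read above its group mean for 7 of these 7 genes, by 0.074 on average, and Ctr9 esiRNA array 3 for 1 of them, with an average of -0.094. Both averages are small beside the differences between the treatments.

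The genes most like Gbp2 over the 8 arrays were Vgll3, a transcription cofactor of TEAD proteins (r = 0.9993), the matricellular protein gene Ccn2 (0.9991), the keratin gene Krt18 (0.9989), the selenium carrier gene Selenop (0.9986) and Parp12 (0.9986). Of these, Parp12 is an interferon-stimulated gene. Such values follow from the separation of the 2 groups, and 198 of 18008 genes compared had an r above 0.99. With the group means taken out, the same 5 genes correlated with Gbp2 at 0.81, 0.78, 0.39, 0.52 and 0.50. Picking genes by their r over these same arrays favours such agreement, so these values are a description only.

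Position on the chromosome was examined next, from the gene order of GRCm38.p6. Gbp5, Gbp7, Gbp3, Gbp2b and Gbp2 lie side by side on chromosome 3, and Gbp8, Gbp9, Gbp4, Gbp10 and Gbp6 on chromosome 5. On chromosome 11 Igtp and Irgm2 are neighbours, while Irgm1 lies apart from them. The related GTPase genes Tgtp1, Tgtp2, Ifi47 and Gm12250 lie between, and so do unrelated genes, Mgat1 and Larp1 among them. The question was whether the genes around them also differed. The 5 nearest measured protein-coding genes on each side of the chromosome 3 group included Lmo4, which rose by 0.83 (SE 0.074, limma, Benjamini-Hochberg adjusted p = 2.79e-05), and Kyat3, the first measured gene beyond Gbp2, which fell by 0.27 (SE 0.057, limma adjusted p = 0.00549). In all, 4 of these 10 genes rose, 2 fell and 4 did not pass.

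Around the chromosome 5 group 2 of 10 genes rose, among them the volume-regulated anion channel gene Lrrc8c (0.95, SE 0.076), and 2 fell. Around Igtp and Irgm2 3 of 10 rose and 1 fell, and around Irgm1 none rose and 2 fell. Over the 40 flanking genes, 9 rose and 7 fell, against 15.8% higher and 15.0% lower among all genes. The differences of the flanking genes ran from -0.85 to 0.95, so none reached the sizes of Gbp2, Gbp2b, Gbp3, Gbp7, Irgm1 or Igtp. Gbp5 had no probe set with its symbol alone and was not analysed here.

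Of 18 listed GTPases related to the set, 8 could be read, and none rose while 2 fell, beside 15.8% higher and 15.0% lower among all genes. Ifi47 (Irgd), an effector IRG of chromosome 11, read 4.74, 4.50, 4.60 and 4.57 in the controls and 5.05, 4.69, 4.77 and 4.76 with Ctr9 esiRNA, a difference of 0.22 (SE 0.083, limma adjusted p = 0.0879). The antiviral dynamin-like genes Mx1 and Mx2 differed by 0.012 (SE 0.086) and -0.10 (SE 0.113) at dim signals and did not pass. The atlastin genes Atl1 and Atl3, which shape the endoplasmic reticulum and are distant kin of the GBPs, fell by 0.43 (SE 0.087, limma adjusted p = 0.00499) and 0.24 (SE 0.051, limma adjusted p = 0.00616). The other Atl1 probe set did not pass (-0.11, limma adjusted p = 0.451). The Atl3 call was lost with the mean of its 5 probe sets (-0.0037, limma adjusted p = 0.963) and without luciferase arrays 1 and 2 (-0.21, limma adjusted p = 0.0551). The median over the 8 genes was -0.046, and 4 of them read below the array median in both groups, Ifi47, Mx1 and Mx2 among them. Gbp4, Gbp5, Gbp9, Gbp10, Gbp11, Tgtp1 and Tgtp2 had no probe set of their own symbol and were not analysed here.

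**Figure D4:**
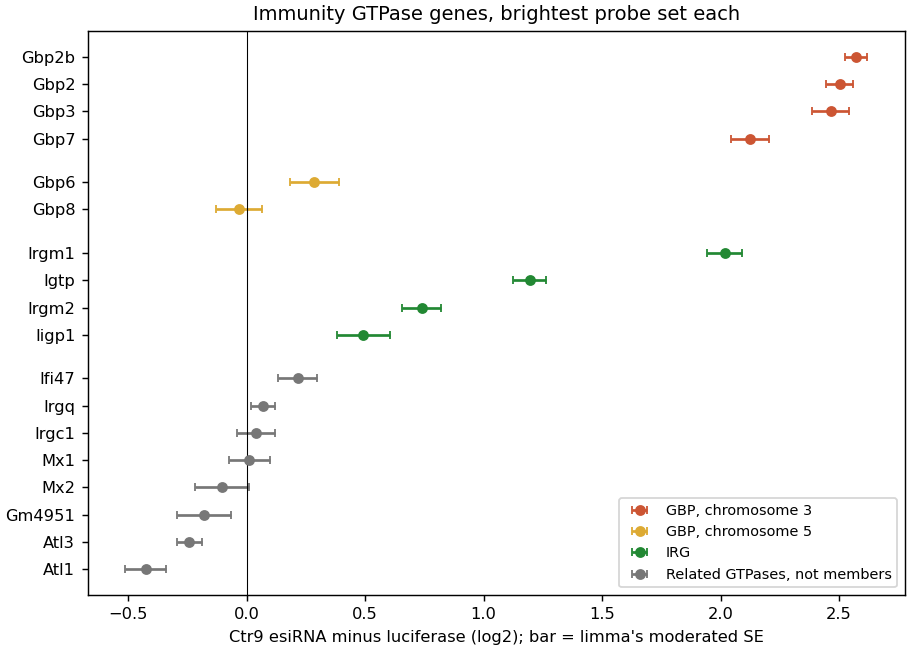
Difference (log2, Ctr9 esiRNA minus luciferase, with limma's moderated SE) of each immunity GTPase gene on its brightest probe set, grouped by chromosome and family. The chromosome 3 GBPs lie between 2.12 and 2.57, the chromosome 5 GBPs at 0.29 and -0.03, the IRGs between 0.49 and 2.02, and the related GTPases between -0.43 and 0.22.

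Upstream of the GTPases, the interferon genes themselves read at the dim end of the arrays. Ifng read between 3.23 and 3.65 over all 8 arrays and Ifnb1 between 4.23 and 4.71, and their differences of -0.01 (SE 0.099) and 0.17 (SE 0.092) did not pass (limma adjusted p = 0.942 and 0.211). The interferon gamma receptor genes Ifngr1 (0.15, SE 0.069) and Ifngr2 (0.17, SE 0.084) did not pass either. Of the receptor kinases, Jak2 rose by 0.29 (SE 0.075, limma adjusted p = 0.0169) and by 0.27 on its other probe set, Jak1 differed by 0.12 (SE 0.051, limma adjusted p = 0.127), and Tyk2 fell by 0.25 (SE 0.045, limma adjusted p = 0.00236). The other Tyk2 probe set did not pass (-0.096, limma adjusted p = 0.48). Without luciferase arrays 3 and 4 Jak2 no longer passed (0.21, limma adjusted p = 0.111).

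Irf1, the interferon-induced factor that binds ISRE-like elements and is required for full induction of many GBPs, stood out among the signalling genes. It read 9.16, 9.13, 9.09 and 9.07 in the controls and 10.23, 10.31, 10.19 and 10.24 with Ctr9 esiRNA. The groups lay 1.03 log2 units apart, and Irf1 rose by 1.13 (SE 0.046, 2.19-fold, limma adjusted p = 2.18e-07). Irf2, a related factor chosen for mention after its value was seen, rose by 0.37 (SE 0.087). Its signal was dim, at means of 3.36 in the controls and 3.74 with Ctr9 esiRNA, both below the array median. The Irf2 groups were 0.024 log2 units apart at their nearest values. Stat2 differed by -0.14 (SE 0.052, limma adjusted p = 0.0846), and passed as lower without Ctr9 esiRNA array 2 (-0.18, limma adjusted p = 0.0258) and on its second probe set (-0.24, limma adjusted p = 0.0055). Irf9 and Irf8 differed by -0.10 (SE 0.053) and -0.15 (SE 0.083) and did not pass.

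Socs1, a feedback inhibitor that interferon gamma induces, rose by 0.32 (SE 0.062, limma adjusted p = 0.0033), as did Pias1 (0.34, SE 0.046), a SUMO ligase gene, and the phosphatase gene Ptpn11 (0.26, SE 0.049). For Pias1 and Ptpn11 no other probe set passed. Of 31 measured genes of interferon signalling, 8 rose, 3 fell and 20 did not pass, beside 15.8% higher and 15.0% lower among all genes, with a median difference of 0.085. Leaving out luciferase arrays 3 and 4 left 5 higher and 1 lower.

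Downstream, genes that interferon gamma induces were read as 1 list, which holds immunoproteasome, peptide loading, chemokine, adhesion and MHC class II genes. Of its 23 measured genes 12 rose, 1 fell (the adhesion gene Icam1, by 0.68) and 10 did not pass. Among all genes 15.8% were higher and 15.0% lower, and the list median was 0.26 against 0.0036 over all genes. Those that did not pass included Cxcl9, Ido1, Nos2, Ubd, Cd74, H2-Aa, H2-Ab1 and H2-Eb1. H2-Aa passed as higher on another, dim probe set with overlapping groups (0.28, limma adjusted p = 0.0456), and not on its remaining ones. In the controls 9 of the 23 read below the array median. The immunoproteasome gene Psmb8 rose by 1.78 (SE 0.077, limma adjusted p = 2.82e-07) and Psmb10 by 1.19 (SE 0.056, limma adjusted p = 4.52e-07). Tapbp and Tap2, which load peptides onto MHC class I, rose by 1.21 (SE 0.044) and 1.10 (SE 0.079). Each of these 4 genes had groups that did not overlap.

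Of the type I interferon-stimulated genes, 15 of 31 rose, 5 fell and 11 did not pass, beside 15.8% higher and 15.0% lower among all genes, at a median of 0.22. Oasl2 rose by 1.98 (SE 0.118), the tetherin gene Bst2 by 1.10 (SE 0.057, n = 3 Ctr9 esiRNA values), Ifi35 by 1.02 (SE 0.052) and Parp9 by 0.87 (SE 0.056). Among probe sets at or above the median signal 6 rose and 5 fell.

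ISRE core matches were set beside these lists. Among genes with a promoter entry, 3 of 14 interferon gamma-induced effectors and 12 of 25 type I interferon-stimulated genes held a match. All 3 of the former rose (Psme1, B2m and Cxcl10) and 5 of the latter (Ifit1, Rsad2, Ifih1, Bst2 and Trim21), while 3 of the latter fell (Oas1a, Ddx58 and Ifitm2) and 4 did not pass. Of the genes with a promoter entry but no match, 6 of 11 effectors and 6 of 13 type I interferon-stimulated genes rose. Across the array, leaving out the members, 16.4% of 517 genes with an ISRE core match rose, against 15.8% of 14445 genes with a promoter entry, and 1.93% against 0.948% were at least 2-fold higher. The median differences of these groups were 0.0028 and 0.0022.

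**Figure D5:**
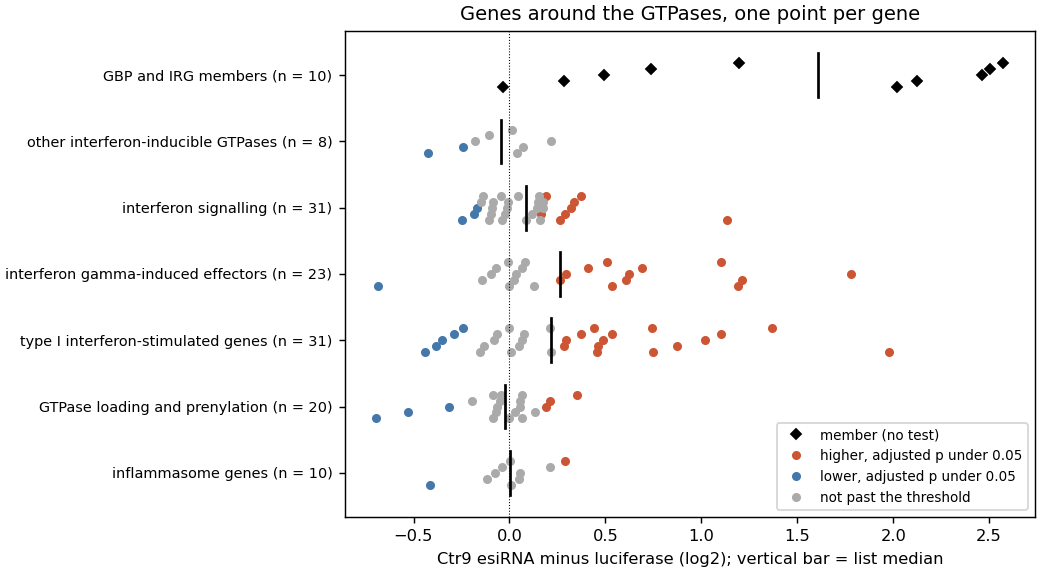
Difference (log2) of each gene in 6 lists around the GTPases, with the 10 members on top as black diamonds without a test. Red and blue points passed at an adjusted p under 0.05 as higher or lower, and vertical bars mark list medians. These run from -0.046 for the related GTPases to 0.26 for the interferon gamma-induced effectors. The related GTPases are labelled other interferon-inducible GTPases and include the atlastins.

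GBPs and IRGs are placed on membranes with the help of ubiquitin-like conjugation factors of autophagy and of the prenyl transferases that lipidate GBPs. Of 20 genes of autophagy and prenylation, which include others beside these factors, 3 rose, 3 fell and 14 did not pass. These shares are near the 15.8% higher and 15.0% lower among all genes, and the median was -0.022. With the mean of each gene's probe sets 2 rose and 5 fell. Map1lc3b, named after its values were seen, was higher on its brightest probe set (0.21, SE 0.042) and lower on 2 others (-0.15 and -0.22). Gabarapl2, also called GATE-16, fell by 0.53 (SE 0.049, limma adjusted p = 3.27e-05), the autophagy kinase gene Ulk1 fell by 0.69 (SE 0.089) and Atg12 by 0.32 (SE 0.056), while Gabarapl1 rose by 0.35 (SE 0.054). Of 10 inflammasome genes, which act downstream of GBPs in infected macrophages, 1 rose and 1 fell, which is no more than the shares among all genes (15.8% and 15.0%). Aim2, a DNA sensor, rose by 0.29 (SE 0.060), and the adaptor gene Pycard fell by 0.42 (SE 0.058), a call that ended with the mean of its 3 probe sets (-0.14, limma adjusted p = 0.0831).

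Markers of cell types were read beside the members, since fewer cells of a type and less RNA per cell cannot be told apart in such bulk samples. Among all genes, 15.8% were higher and 15.0% lower with Ctr9 esiRNA. All 10 ES cell markers read above the array median in both groups, 6 of them were lower with Ctr9 esiRNA and none higher, with differences down to -1.10 (Esrrb), and their summed linear signal was 88635 to 90744 in the controls and 76035 to 77618 with Ctr9 esiRNA. Of 11 macrophage and leukocyte markers, whose cells make GBPs strongly, 8 read below the median, Ptprc and Adgre1 among them, none rose and 2 fell (Cd68 and Laptm5), and the sum was 1169 to 1237 against 832 to 854. For 13 fibroblast markers, as feeder cells would carry, 9 read below the median, 3 rose and the sum was 584 to 641 against 665 to 691. The 8 endothelial markers summed to 654 to 690 against 528 to 551, with 1 higher, 2 lower and 4 below the median. The macrophage, fibroblast and endothelial counts are of few genes and are not read as changes in those cell types. Of the trophectoderm markers 7 of 9 were higher, with a sum of 2057 to 2461 against 5206 to 5611. Bright genes weigh most in this sum, among them Krt8 and Krt18, which rose by 2.61 and 2.39. Tfap2c (-0.13) and Elf5 (0.049) did not pass. In the controls 3 of the trophectoderm markers (Gata3, Elf5 and Plac1) read below the median. The part of trophectoderm-like or fibroblast-like cells in the GTPase differences was not tested.

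The 5 probe sets of Ctr9, the targeted gene, did not give 1 direction. The brightest differed by -0.089 (SE 0.047). A two-sided exact permutation test gave p = 0.0857, and 4 against 4 arrays cannot give less than 0.0286, while limma's adjusted p was 0.209. The next 2 in brightness were lower, by -0.15 (SE 0.048, limma adjusted p = 0.0398) and -0.18 (SE 0.053, limma adjusted p = 0.0279), and on both the groups did not overlap. Of the 2 dimmest, 1 was higher (0.29, SE 0.080, limma adjusted p = 0.0228) and 1 did not pass (0.27, SE 0.116, limma adjusted p = 0.125). The group names used here are therefore those of the labels. Over all probe sets the correlation was 0.997 to 0.998 between arrays within a group and 0.992 to 0.994 across groups, and the number of arrays limits the precision.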

How the data were processed

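RNA of 8 samples was read on one-colour Affymetrix arrays, 4 per esiRNA group. The authors deposited 1 log2 signal per probe set and array. The submitters' processing notes name GCOS 1.4 and RMA, with settings and background handling not given in the sources used here. These log2 values entered the analysis as they stand, without rescaling or a filter on low signals.

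The 64 control probe sets were left out, which leaves 45037. The platform annotation gives 34945 of these 1 gene symbol, 932 several and 9160 none, and names were updated by Entrez identifier against RefSeq's GRCm38.p6 genes (34741 matched). Where a gene has several 1-symbol probe sets, the brightest on average stands for it. The members and lists were chosen with earlier results of these data known, and the flanking genes and the count of matches per list after seeing values.

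The treatments were compared with limma 3.58.1 (lmFit and eBayes, R 4.3.3), 1 fit per probe set, with Benjamini-Hochberg adjustment over all 45037 probe sets and a threshold of 0.05, checked on simulated arrays. SE is limma's moderated standard error. Where 1 of the 456 empty values falls on a gene, the fit used the others. Named are all members, Ctr9, a set of signalling genes, up to 4 genes per list with the smallest adjusted p, and the 5 genes most correlated with Gbp2. The single-gene permutation test is scipy 1.17.1's, promoter alignments are Biopython 1.88's and figures matplotlib 3.10.9's. Alternatives were 3 other scalings, weights per array, a robust prior with trend, blocking on the replicate number, arrays left out, averaging each gene's probe sets, dim probe sets left out and a threshold of 0.01.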

Additional observations from a re-analysis of the deposited data

Results flagged for a closer look

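Of 91 groups of 4 arrays checked for a value far from the others, over the members and the other named genes, 1 had such a value, and chance gives about 1 in 20. Aim2 read 6.004 in Ctr9 esiRNA array 3 and 6.10 to 6.12 in the other 3 arrays of that group. No group of a member was among them.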

How the results depend on the processing

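The 6 members at least 2-fold higher numbered 6 in each of the 17 alternatives run for them. Of 167 recomputed member differences, 165 moved by less than the spread between arrays. The others came from averaging a gene's probe sets, at 1.28 for Gbp7 and 2.63 for Gbp2. Among other named genes, 5 of 584 recomputed values lost their call, 4 gained one and none of these reversed. With a threshold of 0.01, 7000 probe sets and 6 interferon signalling genes passed, and that list also gave 6 without luciferase arrays 3 and 4. The related GTPases gave 1 call without luciferase arrays 1 and 2 and 1 with the mean of all probe sets, as did the inflammasome genes under the latter. Among probe sets at or above the median signal, 11 type I interferon-stimulated genes passed. Leaving out each array in turn gave 9556 to 10135 probe sets. With the replicate number as a block, 9771 probe sets passed, but same-numbered arrays deviated together only at correlations of -0.078 to 0.063, so the numbers do not pair the samples. Under this block Ifi47 passed (0.22, limma adjusted p = 0.0255). Dim signals, those of Gbp6, Gbp8 and Iigp1 included, limit what can be seen.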
